A study of Mus musculus with 23 samples.

Results

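DNA replication and repair synthesis genes, the 46 genes whose products license origins, unwind and copy DNA, join the new strands, supply nucleotides and fill in repaired stretches, were examined in the lungs of adult mice. They were found by gene symbol, a rule that uses no measured value, but the list was chosen with earlier results of these data known. All 46 were among the 35322 genes of the table. Lung RNA-Seq libraries came from 13-week-old female Balb/c offspring. Sham offspring (n = 7) were born to saline-exposed dams and PM offspring (n = 7) to dams given fine particulate matter (PM2.5) intranasally before mating, through gestation and until weaning, and both received a control challenge without allergen (PBS in the labels, saline in the methods). Sham-OVA (n = 5) and PM-OVA (n = 4) offspring of the same kinds of dam received ovalbumin (OVA) for sensitisation and challenge, an egg protein used to induce allergic airway disease. Each library came from a portion of the lung of 1 offspring, and the labels name no transgene or deletion.

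Before a cell copies its DNA, the origin recognition complex (ORC) with Cdc6 and Cdt1 loads rings of Mcm2 to Mcm7 onto origins, and Cdc45 and the GINS proteins then turn each ring into the working helicase. Primase and DNA polymerases copy the strands under the sliding clamp PCNA, while ribonucleotide reductase supplies the building blocks. Many of these genes are known targets of the E2F transcription factors and are transcribed mainly in cycling cells, and most cells of the resting adult lung do not divide.

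Between 13089691 and 17393579 reads were counted on genes in each of the 14 libraries without OVA. The OVA libraries were shallower, with 2298645 reads in replicate 3 of Sham-OVA, 5922469 in replicate 3 of PM-OVA, 4324326 in replicate 4 of PM-OVA, and up to 12355561 in the others. One read was therefore worth 0.0502 to 0.0688 RPM (reads on a gene scaled to a common library size) without OVA, but 0.311 RPM in Sham-OVA replicate 3, where a count of 0 allows a level of up to 0.932 RPM (3 reads). The library labelled Sham replicate 1 went against the female sex of the study, since Xist, which silences the inactive X in females, had 0.289 RPM there and between 528 and 1618 RPM in the remaining 6 Sham animals, while the Y-linked Eif2s3y had 54.0 RPM there and 0 elsewhere. Markers of alveolar, airway, endothelial and stromal cells were present in all 4 groups, as in lung tissue. In such bulk samples, fewer cells of a type and less RNA per cell cannot be told apart.

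Most replication genes were more abundant in Sham-OVA than in Sham lungs. Of the 45 members that passed the filter on low values (0.5 RPM or more in 4 libraries or more), 31 were higher, 2 were lower and 12 were not called at an adjusted p under 0.05 (limma with Benjamini-Hochberg adjustment over 16795 genes). This was 68.9% of the members, where 20.6% of all tested genes were higher and 47.5% were lower. With a log2 fold change above 1 as well, 24 members were higher (53.3%, against 11% of all genes). The median log2 fold change of the members was 1.02, whereas that of all tested genes was -0.48, so most genes were lower on this scale. Quantile normalisation, which removes most of that shift, split the calls over all genes into 5484 higher and 5812 lower, in place of 3453 and 7978, and called 40 members higher. The stricter threshold of the study is an adjusted p under 0.000001 with a log2 fold change above 1. By limma 6 members were higher at it (1.98% of all genes), namely Mcm2, Mcm5, Fen1, Lig1, Rpa2 and Rrm2. The study used this threshold with DESeq2, and with DESeq2 on the recovered reads more members passed it. The 2 groups did not overlap for 23 members that were higher (13.2% of all genes) and for 1 that was lower (35% of all genes). The RPM of all 46 members summed to between 388 and 509 in the Sham libraries and to between 796 and 1336 in the Sham-OVA libraries, which did not overlap. The remaining member, Cdc6, a loader of the Mcm ring, had at most 0.903 RPM in any library and was not tested. Without the library labelled Sham replicate 1, 30 members were higher and 2 lower (3259 and 7780 of all genes). Without Sham-OVA replicate 3, the shallowest, 37 were higher and 2 lower. The calls over all genes then rose as well, to 4221 higher, in place of 3453, with 7925 lower.

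**Figure D1:**
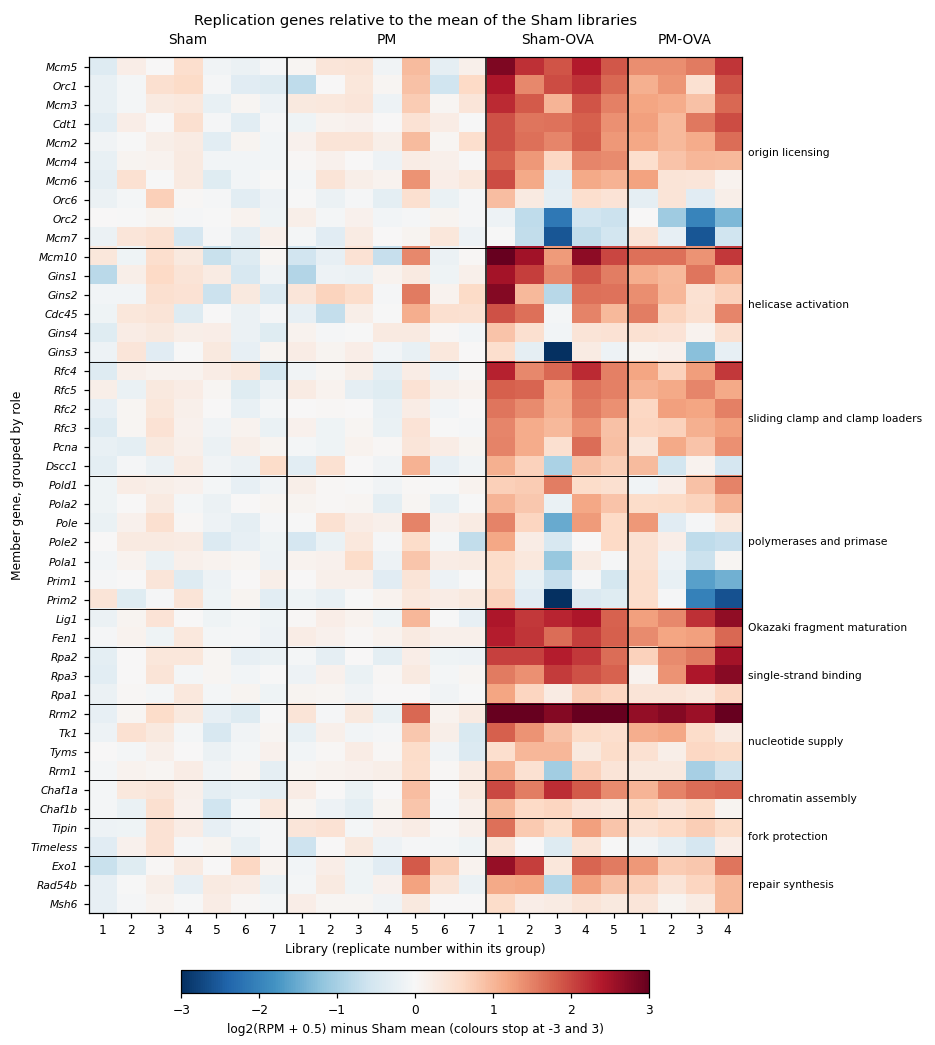
Level of each of the 45 tested members in each of the 23 libraries, as log2(RPM + 0.5) minus the mean of the 7 Sham libraries, with red above and blue below that mean and genes grouped by role. Rrm2 is the reddest gene in the OVA libraries, Orc2 and Mcm7 are mostly blue there, Sham-OVA replicate 3 holds the deepest blue cells (Gins3, Prim2), and PM replicate 5 is redder than the other PM libraries.

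The promoters of genes that moved together and of some that did not were set side by side, because an E2F site is the feature most often named for this gene family. RefSeq promoter windows of 300 bases (250 before to 50 after an annotated start, GRCm38.p6) were at hand for 35 of the 46 members, 40 windows in all. Each was searched on both strands for 4 E2F words, TTTCCCGC, TTTCGCGC, TTTGCCGC and TTTGGCGC. At least 1 word was present in 14 of the 40 member windows (35%), in 12 of 45 windows of other replication genes (26.7%) and in 744 of 32851 windows of all genes (2.26%). The 6 windows below were chosen after the expression values were seen, and capitals mark the words, written as they run on the strand of the gene. Mcm5 (chr8:75109259-75109558, plus strand) held overlapping words 153 and 149 bases before its start.
Mcm5: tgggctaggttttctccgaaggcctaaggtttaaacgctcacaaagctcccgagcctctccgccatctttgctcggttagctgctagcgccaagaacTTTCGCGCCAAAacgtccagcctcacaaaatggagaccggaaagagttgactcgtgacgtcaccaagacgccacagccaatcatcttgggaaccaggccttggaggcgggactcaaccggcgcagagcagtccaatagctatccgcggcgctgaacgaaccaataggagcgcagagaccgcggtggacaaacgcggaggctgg
The window of Lig1 shown (chr7:13278576-13278875, plus strand, 1 of 3 for this gene) had a word 26 bases after the start.
Lig1: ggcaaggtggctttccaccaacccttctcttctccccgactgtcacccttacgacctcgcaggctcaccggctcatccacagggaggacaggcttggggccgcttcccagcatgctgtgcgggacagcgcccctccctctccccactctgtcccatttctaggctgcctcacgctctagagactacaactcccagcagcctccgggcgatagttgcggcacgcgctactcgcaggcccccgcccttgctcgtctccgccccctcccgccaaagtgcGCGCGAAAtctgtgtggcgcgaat
Orc1 (chr4:108579204-108579503, plus strand) had a word 27 bases before the start.
Orc1: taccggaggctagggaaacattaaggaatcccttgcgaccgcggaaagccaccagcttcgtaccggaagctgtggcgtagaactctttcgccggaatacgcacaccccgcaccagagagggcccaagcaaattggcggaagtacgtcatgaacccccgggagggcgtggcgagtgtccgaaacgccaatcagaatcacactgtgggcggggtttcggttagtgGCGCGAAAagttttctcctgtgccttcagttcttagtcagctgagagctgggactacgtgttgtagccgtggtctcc
Rfc3 (chr5:151651159-151651458, minus strand) had words at its start and 10 bases before it.
Rfc3: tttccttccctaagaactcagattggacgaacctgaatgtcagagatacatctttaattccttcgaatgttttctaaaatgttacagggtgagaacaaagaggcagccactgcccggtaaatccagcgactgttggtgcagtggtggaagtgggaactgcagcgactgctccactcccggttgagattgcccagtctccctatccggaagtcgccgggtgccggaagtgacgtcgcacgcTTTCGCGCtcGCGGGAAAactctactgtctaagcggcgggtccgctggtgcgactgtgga
Pola1 (chrX:93632106-93632405, minus strand), a member that was not called, also had a word, 138 bases before its start.
Pola1: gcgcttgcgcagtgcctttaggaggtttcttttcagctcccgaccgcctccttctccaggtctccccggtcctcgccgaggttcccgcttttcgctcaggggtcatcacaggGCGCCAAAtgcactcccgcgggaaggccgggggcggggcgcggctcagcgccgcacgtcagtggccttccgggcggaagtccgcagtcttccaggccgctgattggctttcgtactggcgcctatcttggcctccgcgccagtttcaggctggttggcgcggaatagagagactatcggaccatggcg
Rrm2 (chr12:24708004-24708303, plus strand), the member with the largest change, had none of the 4 words in this window.
Rrm2: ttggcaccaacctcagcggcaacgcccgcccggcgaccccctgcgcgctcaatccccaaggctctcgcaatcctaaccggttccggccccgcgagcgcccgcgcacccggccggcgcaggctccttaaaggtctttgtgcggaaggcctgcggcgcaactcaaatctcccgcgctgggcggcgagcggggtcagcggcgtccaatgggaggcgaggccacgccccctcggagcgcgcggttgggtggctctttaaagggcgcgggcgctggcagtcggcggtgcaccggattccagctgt

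The size of the change with OVA was set beside the presence of an E2F word. The median log2 fold change in Sham-OVA against Sham was 0.99 over the 13 tested members with a word (9 called higher) and 1.13 over the 21 with a window but no word (16 called higher). Among the members with a word were Mcm5, Lig1, Orc1, Mcm3 and Cdt1, with log2 fold changes of 1.66 to 2.23, but also Gins3, Pola1 and Mcm7, with log2 fold changes of -0.92 to -0.01. A CCAAT box (CCAAT) was present in 60% of the member windows and in 37.4% of all windows, a GC box (GGGCGG) in 67.5% and 35.7%, and the word TTTGAA of late cell cycle promoters in 10% and 17.9%. A match is a description of these letters and does not show that a factor binds there.

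**Figure D2:**
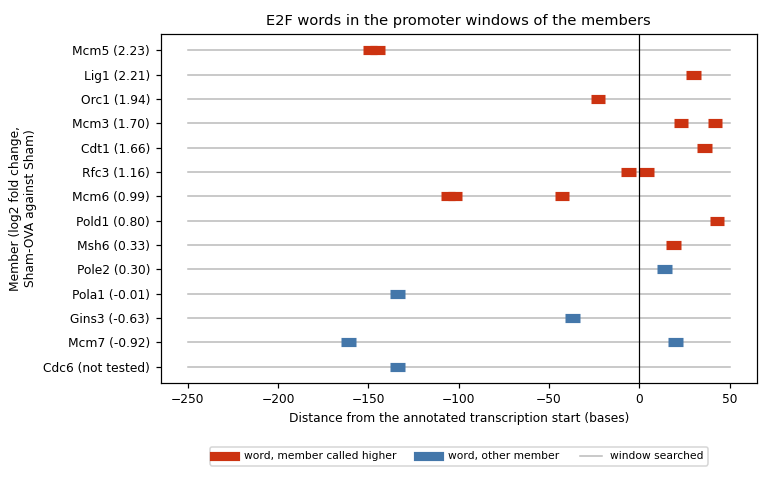
Position of each E2F word (bars) in the promoter windows of the 14 members that hold one, in bases from the annotated start (0), with the log2 fold change in Sham-OVA against Sham beside each name. Members at the top changed most, and words lie both upstream and downstream of the start among members called higher (red) and among the others (blue).

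Among origin licensing genes, 7 of the 10 tested members were higher in Sham-OVA (20.6% of all genes), with a median log2 fold change of 1.47. Mcm5, a subunit of the Mcm ring, ranged from 7.56 to 14.4 RPM in Sham (median 9.84). In Sham-OVA it had 73.2, 47.8, 38.5, 54.5 and 38.1 RPM in replicates 1 to 5. The groups did not overlap, and the level rose 4.93-fold between the group means (log2 fold change 2.23 ± 0.20 SE, adjusted p = 3.88e-07, limma). Mcm2, another subunit, ranged from 13.9 to 20.5 RPM in Sham (median 17.3) and had 66.7, 55.2, 48.8, 62.5 and 43.2 RPM in Sham-OVA replicates 1 to 5. The groups were again separate (log2 fold change 1.63 ± 0.15 SE, adjusted p = 5.98e-07, limma). Mcm3, Mcm4 and Mcm6 rose by log2 fold changes of 1.70, 1.31 and 0.99. Orc1, the largest ORC subunit, rose from a mean of 0.380 to 2.88 RPM (log2 fold change 1.94 ± 0.23 SE), and Cdt1 from 8.84 to 28.7 RPM (log2 fold change 1.66 ± 0.18 SE). Orc6, an ORC subunit, had a log2 fold change of 0.37 and was not called.

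Orc2 and Mcm7 were the only 2 members lower in Sham-OVA. Orc2, an ORC subunit, ranged from 16.6 to 19.8 RPM in Sham (median 18.1) and had 16.3, 10.5, 3.73, 12.2 and 11.5 RPM in Sham-OVA replicates 1 to 5. All Sham-OVA libraries lay below all Sham libraries (log2 fold change -0.86 ± 0.26 SE, adjusted p = 0.0102, limma), and the lowest was the shallowest. Mcm7 ranged from 1.59 to 3.59 RPM in Sham (median 2.40) and had 2.43, 1.28, 0, 1.27 and 1.53 RPM in Sham-OVA, so the groups overlapped (log2 fold change -0.92 ± 0.35 SE, adjusted p = 0.0313, limma). With edgeR on the recovered reads neither was called (Orc2 adjusted p = 0.0954, Mcm7 adjusted p = 0.265), and Mcm7 was not called in DESeq2 either (adjusted p = 0.138). Of the Mcm7 transcript, 72.8% is matched at 95% identity or more by the pseudogene Gm5487, so that reads may be split or dropped in alignment. A stretch of 29.8% of the exons of Orc2 overlaps Nif3l1 on the other strand, and whether counting used strand is not given in the sources used here.

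The 6 subunits of the Mcm ring were not level with each other per length. In RPM per kb of exon, the Sham means were 5.61 for Mcm3, 3.82 for Mcm4, 2.56 for Mcm5, 2.51 for Mcm2, 1.62 for Mcm6 and 0.574 for Mcm7. In Sham-OVA they were 19.0 for Mcm3, 12.6 for Mcm5, 9.97 for Mcm4, 7.95 for Mcm2, 3.67 for Mcm6 and 0.295 for Mcm7. The order in between depended on the length used. Per kb of the longest coding transcript, a length chosen after the data were seen, Mcm2 had 5.17 in Sham and 16.4 in Sham-OVA and stood above Mcm4 and Mcm5 in both. By either length the mean of Mcm3 was the highest and that of Mcm7 the lowest in both groups. Levels per length, here and for other members, take no account of reads lost over introns or to copies elsewhere. The place of Mcm7 may therefore reflect its pseudogene match as well as its abundance, which was not tested.

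Helicase activation genes split, with 4 of 6 higher in Sham-OVA (20.6% of all genes) and a median log2 fold change of 1.21. Mcm10, which helps start the helicase and holds polymerase alpha, ranged from 0.669 to 2.14 RPM in Sham (median 1.46). In Sham-OVA it had 16.3, 10.2, 4.04, 11.5 and 7.01 RPM in replicates 1 to 5. The groups did not overlap and the change was among the largest of all members (log2 fold change 2.33 ± 0.31 SE, adjusted p = 1.40e-05, limma). The GINS subunits Gins1 and Gins2 rose by log2 fold changes of 1.88 and 1.24 and the helicase subunit Cdc45 by 1.19, whereas Gins4 (0.41) was not called. Gins3 ranged from 3.94 to 6.71 RPM in Sham (median 5.07) and had 7.44, 4.14, 0, 6.14 and 4.53 RPM in Sham-OVA. Its groups overlapped, and the value of -0.63 ± 0.53 SE (adjusted p = 0.299, limma) turned to 0.08 without Sham-OVA replicate 3. The rise of Gins2 was not called without Sham-OVA replicate 1 (adjusted p = 0.0829), 4 or 5 or without Sham replicate 5, and 67.3% of its exons overlap Gse1 on the other strand.

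The sliding clamp and its loaders were higher in 5 of 6 cases (20.6% of all genes), with a median log2 fold change of 1.28. Pcna, the clamp that tethers polymerases to DNA, ranged from 2.34 to 3.76 RPM in Sham (median 3.21) and had 9.31, 7.00, 4.35, 10.6 and 6.06 RPM in Sham-OVA. The lowest Sham-OVA library was above the highest Sham library (log2 fold change 1.13 ± 0.23 SE, adjusted p = 0.000463, limma), and 51.4% of its transcript is matched by the pseudogene Pcna-ps2. Rfc4, a subunit of the complex that opens the clamp, ranged from 1.31 to 2.73 RPM in Sham (median 2.32) and had 12.4, 6.54, 8.08, 11.8 and 6.87 RPM in Sham-OVA (log2 fold change 1.84 ± 0.23 SE, adjusted p = 7.81e-06, limma). The other loader subunits moved with it, Rfc5 by 1.56, Rfc2 by 1.40 and Rfc3 by 1.16 on the log2 scale, all without overlap. Of the exons of Rfc2, 15.1% overlap Lat2 (mean 32.2 RPM) on the other strand. Of those of Rfc4, 12.7% overlap Eif4a2 (mean 82.9 RPM), also on the other strand. Stretches of 10 genes elsewhere match 41.3% of the Rfc5 transcript. Dscc1, part of an alternative loader, was low, at 0.289 to 0.904 RPM in Sham and at 1.53, 1.05, 0, 1.27 and 1.10 RPM in Sham-OVA. It was not called (log2 fold change 0.49 ± 0.30 SE, adjusted p = 0.167, limma), but was called without Sham-OVA replicate 3 (0.85, adjusted p = 0.00133).

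Polymerases and primase had the smallest median of the 10 role groups, with a log2 fold change of 0.30. Of the 7 members, 2 were called higher, a share near that of all genes (20.6%). Pold1, the catalytic subunit of polymerase delta, ranged from 11.6 to 16.1 RPM in Sham (median 13.2) and had 22.9, 23.8, 40.7, 20.2 and 19.3 RPM in Sham-OVA. The groups were separate, with the shallowest library the highest (log2 fold change 0.80 ± 0.19 SE, adjusted p = 0.00165, limma). Pola2, the accessory subunit of polymerase alpha, rose by 0.73 ± 0.21 SE on the log2 scale, while its catalytic partner Pola1 had a value of -0.01 ± 0.25 SE. Prim2, the large subunit of primase, ranged from 3.61 to 6.35 RPM in Sham (median 4.63) and had 8.06, 3.69, 0, 3.43 and 3.58 RPM in Sham-OVA. Replicate 1 lay above every Sham library and replicates 3, 4 and 5 below every one, and the gene was not called (log2 fold change -0.76 ± 0.51 SE, adjusted p = 0.192, limma). The polymerase epsilon subunits Pole (0.50 ± 0.40 SE) and Pole2 (0.30 ± 0.26 SE) and the small primase subunit Prim1 (-0.19 ± 0.23 SE) were not called. Pole was called without Sham-OVA replicate 3 (1.00, adjusted p = 0.000588), where it had 0.311 RPM, a single read. Under quantile normalisation, edgeR and DESeq2, Pola1 was called higher (log2 fold changes of 0.47 to 0.53), and Prim1 turned positive without being called.

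Okazaki fragments, the short pieces of the lagging strand, are trimmed by Fen1 and joined by Lig1, and both genes rose. Lig1 ranged from 7.27 to 11.3 RPM in Sham (median 7.96) and had 46.7, 38.1, 42.6, 47.2 and 29.7 RPM in Sham-OVA. The groups were far apart, with a rise of 4.85-fold between the means (log2 fold change 2.21 ± 0.17 SE, adjusted p = 9.19e-08, limma). Fen1 ranged from 14.2 to 19.8 RPM in Sham (median 15.5) and had 83.9, 72.1, 51.6, 68.9 and 56.1 RPM in Sham-OVA, a rise of 4.15-fold without overlap (log2 fold change 2.01 ± 0.15 SE, adjusted p = 9.17e-08, limma). Of the exons of Fen1, 78.8% overlap the antisense gene Gm10143, which had a mean of only 0.117 RPM.

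All 3 subunits of RPA, the protein that coats single-stranded DNA at forks and repair sites, were higher. Rpa2 ranged from 13.5 to 21.2 RPM in Sham (median 16.7) and had 70.0, 70.9, 87.3, 74.4 and 53.9 RPM in Sham-OVA. No library overlapped and the shallowest was the highest (log2 fold change 2.05 ± 0.17 SE, adjusted p = 1.56e-07, limma). Rpa3 rose by 1.74 ± 0.18 SE on the log2 scale. Rpa1, the largest subunit, ranged from 54.7 to 77.7 RPM in Sham (median 60.0) and had 143, 97.4, 74.3, 106 and 97.1 RPM in Sham-OVA, so that replicate 3 fell inside the Sham range (log2 fold change 0.70 ± 0.16 SE, adjusted p = 0.00107, limma). Per kb of exon, the Sham means were 11.2 for Rpa1, 5.63 for Rpa2 and 4.04 for Rpa3, compared with 18.6, 23.8 and 14.7 in Sham-OVA, and the mean of Rpa2 was above that of Rpa1 in Sham-OVA. Per kb of the longest coding transcript the Sham-OVA means were 20.4 for Rpa1, 39.3 for Rpa2 and 24.9 for Rpa3, so that the place of Rpa3 changed with the length used.

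Nucleotide supply held the largest change of all. Rrm2, the regulatory subunit of ribonucleotide reductase, made in cycling cells, ranged from 1.34 to 3.01 RPM in Sham (median 1.86) and had 44.1, 26.1, 15.5, 32.0 and 20.5 RPM in Sham-OVA. Even the lowest Sham-OVA library stood far above the highest Sham library, and the mean rose 14.2-fold (log2 fold change 3.47 ± 0.26 SE, adjusted p = 7.99e-08, limma). Its large partner Rrm1 ranged from 26.2 to 36.5 RPM in Sham (median 32.6) and had 65.0, 43.3, 14.9, 50.8 and 41.3 RPM in Sham-OVA. Of these, 4 libraries were above and replicate 3 was below every Sham library, and Rrm1 was not called (log2 fold change 0.30 ± 0.27 SE, adjusted p = 0.337, limma) except without that library (0.64, adjusted p = 0.000354) and under 5 other settings. Thymidine kinase Tk1 and thymidylate synthase Tyms, which make thymidine nucleotides, rose by 1.02 ± 0.25 SE and 0.67 ± 0.18 SE on the log2 scale. In RPM per kb of exon, the mean of Rrm2 went from 0.700 in Sham to 9.98 in Sham-OVA and that of Rrm1 from 2.87 to 3.91. Per kb of the longest coding transcript the Sham-OVA means, 12.6 for Rrm2 and 10.8 for Rrm1, differed by less than their SDs (5.04 and 4.58). Copies elsewhere in the genome match 27.9% of the Rrm2 transcript.

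Chromatin assembly, fork protection and repair synthesis each had a stronger and a weaker member. Chaf1a, the large subunit of the factor that places histones on new DNA, ranged from 6.02 to 9.90 RPM in Sham (median 7.27) and had 31.4, 22.6, 36.7, 28.4 and 20.9 RPM in Sham-OVA. The groups did not overlap (log2 fold change 1.79 ± 0.19 SE, adjusted p = 2.20e-06, limma), although 52.5% of its exons overlap Ubxn6 on the other strand. Its partner Chaf1b ranged from 2.62 to 6.08 RPM in Sham and had 8.83, 6.70, 6.84, 5.74 and 5.40 RPM in Sham-OVA, with overlap (log2 fold change 0.59 ± 0.21 SE, adjusted p = 0.0236, limma). Without Sham replicate 5 or Sham-OVA replicate 1 Chaf1b was not called (adjusted p = 0.0521 and 0.0642). Tipin, part of the pair that steadies a stalled fork, ranged from 11.7 to 18.9 RPM in Sham (median 13.2) and had 44.8, 24.5, 20.5, 33.5 and 25.1 RPM in Sham-OVA, all above Sham (log2 fold change 1.01 ± 0.20 SE, adjusted p = 0.000441, limma). Its partner Timeless was not called, at 14.4 to 25.2 RPM in Sham and 24.2, 18.7, 14.0, 24.3 and 18.3 RPM in Sham-OVA (0.08 ± 0.18 SE, adjusted p = 0.712, limma).

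Among the repair synthesis genes, the nuclease Exo1 ranged from 0.0577 to 0.872 RPM in Sham (median 0.405) and had 4.93, 3.23, 0.621, 2.47 and 2.12 RPM in Sham-OVA. Only replicate 3 fell inside the Sham range (log2 fold change 1.67 ± 0.33 SE, adjusted p = 0.000485, limma). Msh6, which recognises mismatched bases, ranged from 14.0 to 19.6 RPM in Sham (median 16.5) and had 24.6, 19.2, 19.9, 22.0 and 20.5 RPM in Sham-OVA. Its rise was small (log2 fold change 0.33 ± 0.14 SE, adjusted p = 0.0475, limma) and was not called in most of the fits that left out 1 library. Rad54b, a recombination factor whose exons overlap Fsbp on the same strand over 35.8% of their length, was not called (0.71 ± 0.32 SE, adjusted p = 0.0602, limma).

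**Figure D3:**
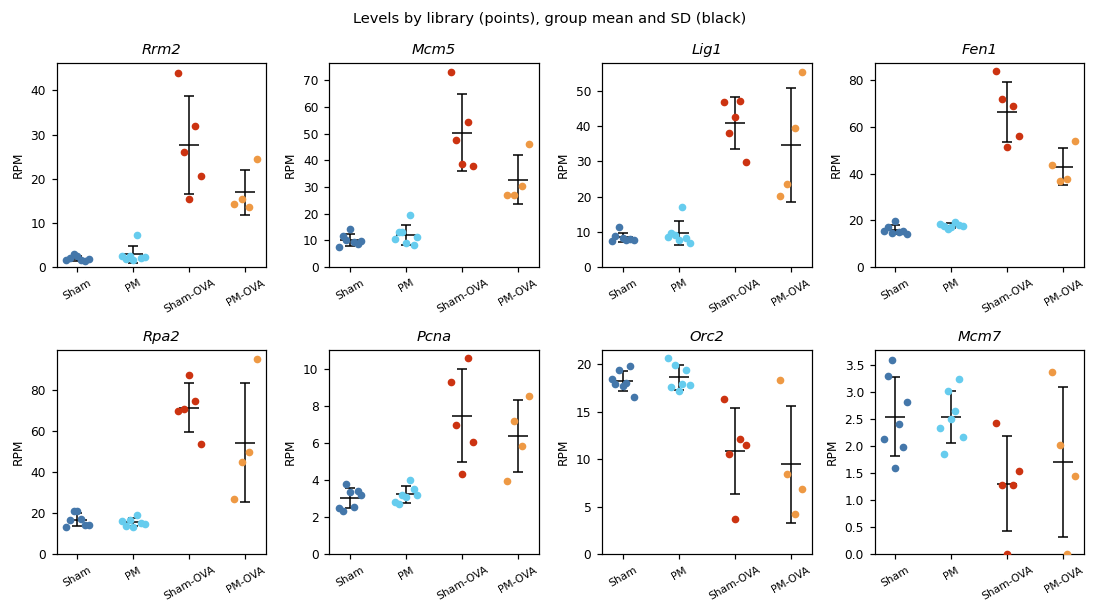
RPM of 8 members in each library (points), with the group mean and SD in black and each axis starting at 0. For Rrm2, Mcm5, Lig1, Fen1 and Rpa2 all OVA libraries lie above all libraries without OVA, for Pcna 1 PM-OVA library reaches the PM range, and for Orc2 and Mcm7 the OVA libraries lie mostly below.

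In PM offspring the same comparison, PM-OVA against PM, showed 24 of 45 members higher (53.3%, against 20.1% of all genes), 1 lower, Orc2 (45.2% of all genes were lower), and 20 not called. With a log2 fold change above 1, 14 were higher (31.1%, against 9.89% of all genes). The median log2 fold change was 0.71 for the members and -0.43 for all tested genes, and quantile normalisation called 5288 of all genes higher and 5445 lower, in place of 3379 and 7589, with 33 members higher. Orc2 was also below -1 on the log2 scale (28% of all genes). The groups did not overlap for 18 members that were higher (13.3% of all genes) and for none that was lower (28.6% of all genes). By limma none passed the threshold of the study (0.262% of all genes). With DESeq2, the tool the study used it with, some members did. Rrm2 again changed most, from 1.58 to 7.34 RPM in PM (median 2.39) to 14.3, 15.5, 13.5 and 24.5 RPM in PM-OVA replicates 1 to 4 (log2 fold change 2.46 ± 0.33 SE, adjusted p = 9.71e-05, limma). All 4 challenged libraries stood above all 7 others. Lig1 rose from a range of 6.94 to 17.1 RPM to 20.2, 23.4, 39.6 and 55.4 RPM (log2 fold change 1.74 ± 0.29 SE, adjusted p = 0.000342, limma), with the shallow replicates 3 and 4 highest. Fen1 rose from 16.3 to 19.4 RPM in PM to 43.5, 36.7, 37.8 and 53.9 RPM (log2 fold change 1.24 ± 0.14 SE, adjusted p = 3.14e-05, limma).

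Of the other members described above, Mcm5 was at 8.31 to 19.7 RPM in PM and 27.1, 27.1, 30.4 and 46.3 RPM in PM-OVA (log2 fold change 1.40 ± 0.23 SE), without overlap. Mcm10 had 0.658 to 4.58 RPM in PM and 5.38, 5.33, 4.25 and 7.63 RPM in PM-OVA (1.66 ± 0.36 SE), where replicate 3 lay below the highest PM library. Rpa2 had 13.4 to 19.2 RPM in PM and 27.0, 44.9, 49.9 and 95.3 RPM in PM-OVA (1.63 ± 0.26 SE), again with replicate 4 the highest. Mcm2 rose by 0.86 ± 0.19 SE on the log2 scale, Rfc4 by 1.32 ± 0.24 SE, Pcna by 0.85 ± 0.21 SE and Chaf1a by 1.30 ± 0.22 SE, and all 4 were called. Rpa1 (0.43 ± 0.11 SE) and Tipin (0.41 ± 0.14 SE) were also called, and neither was called with the replicate number as a block (adjusted p = 0.110 and 0.244). Tipin was not called without PM-OVA replicate 3 (adjusted p = 0.0594). Pold1 (0.59 ± 0.25 SE, adjusted p = 0.0531), Exo1 (0.78 ± 0.37 SE, adjusted p = 0.0790), Chaf1b (0.30 ± 0.22 SE) and Msh6 (0.34 ± 0.17 SE) were not called. Without PM replicate 5, Exo1 was called (1.04, adjusted p = 0.00397).

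The remaining members of the same lists were low or scattered in PM-OVA. Orc2 had 17.2 to 20.6 RPM in PM and 18.3, 8.42, 4.25 and 6.90 RPM in PM-OVA, where replicate 1 stayed inside the PM range (log2 fold change -1.12 ± 0.28 SE, adjusted p = 0.00392, limma). Mcm7 had 3.36, 2.01, 0 and 1.45 RPM in PM-OVA, against 1.84 to 3.24 RPM in PM, and was not called (-0.78 ± 0.42 SE). Prim2 had 7.05, 4.64, 0.797 and 0.363 RPM against 3.99 to 6.04 RPM in PM, and Rrm1 38.4, 38.6, 15.4 and 19.8 RPM against 32.5 to 45.8 RPM. In both genes the shallow replicates 3 and 4 fell below every PM library and neither was called (Prim2 -1.12 ± 0.49 SE, Rrm1 -0.45 ± 0.24 SE). Without replicate 1 both were called lower (Prim2 -1.64, adjusted p = 0.00341 and Rrm1 -0.64, adjusted p = 0.0222), as they were without replicate 2 (adjusted p = 0.0262 and 0.0318). Without the 3 shallowest libraries, a choice made after the data were seen, they stood at 0.16 and 0.10. Pole, Pole2, Dscc1, Gins3 and Timeless had values from -0.40 to -0.07, none of them called. Pole, Pole2, Dscc1, Timeless and Rrm1 had values above 0 in Sham offspring and below 0 in PM offspring, and none of these 5 was called in either. The values of Pole and Pole2 in PM offspring were above 0 with quantile normalisation, median-of-ratios scaling, edgeR and DESeq2.

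**Figure D4:**
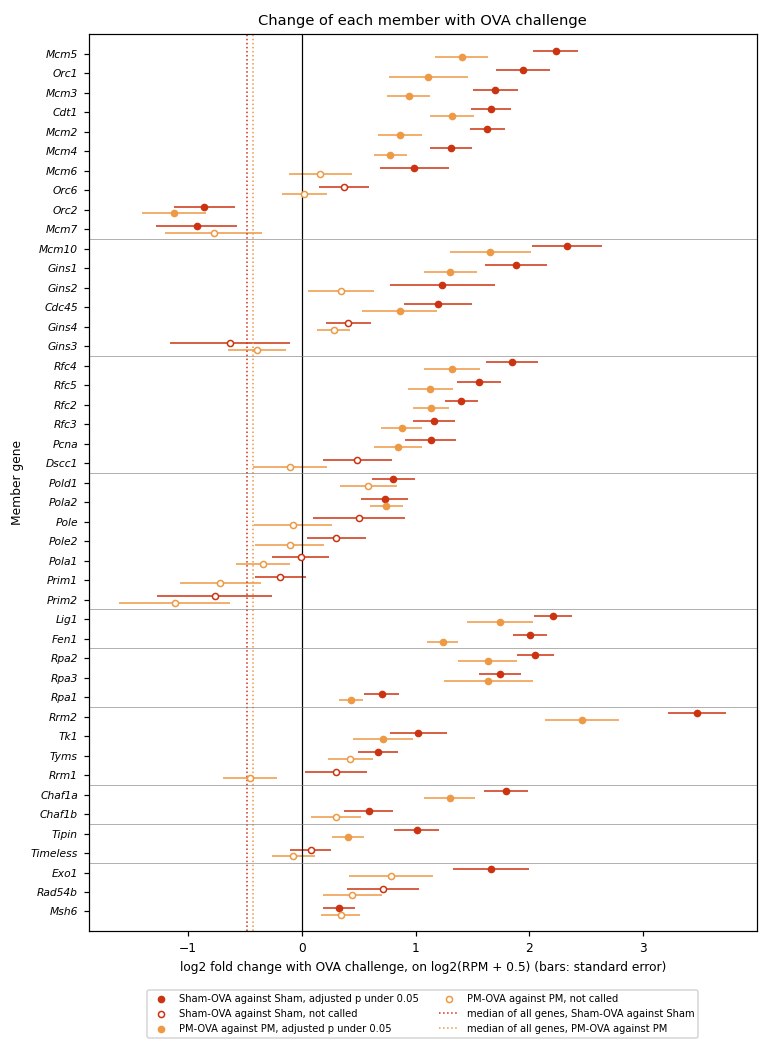
Log2 fold change with OVA challenge of each tested member, with its standard error, in Sham offspring (red) and PM offspring (orange), filled where the adjusted p was under 0.05, with dotted lines at the median of all genes. For most genes the red point lies to the right of the orange one, the polymerase and primase genes lie between -0.76 and 0.80 in Sham offspring, and there the points of Orc2, Mcm7, Gins3, Prim1, Prim2 and Pola1 are the 6 below 0, with the error bars of Prim1 and Pola1 crossing it.

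Without OVA, the offspring of PM2.5-exposed dams did not differ detectably from Sham offspring in any member. None of the 45 members, and none of all 16795 genes, passed an adjusted p of 0.05 in PM against Sham with limma, edgeR or DESeq2. At an unadjusted p under 0.05 there were 3 members higher in PM (6.67%, against 2.51% of all genes), and none was lower (1.85% of all genes). In no member did the groups not overlap (0.00595% of all genes were lower without overlap). The 3 were Mcm2 (log2 fold change 0.37 ± 0.13 SE), Mcm3 (0.28 ± 0.13 SE) and Gins2 (0.54 ± 0.24 SE), each at an adjusted p of 0.898. DESeq2 placed 5 and edgeR 4 members under an unadjusted p of 0.05. Leaving out 1 library gave 1 to 6 such members, with 1 without Sham replicate 1, 5 or 7 or PM replicate 2, 3, 5 or 7, 5 without Sham replicate 3 or PM replicate 1, and 6 without Sham replicate 4. The counts under these other settings took either direction, and the share of all genes was not counted for them. A total of 36 of 45 log2 fold changes were above 0, with a median of 0.08 (0.02 for all genes), and this median was 0.03 without PM replicate 5.

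PM replicate 5 stood apart from the other PM libraries. It had the highest level of the 7 PM libraries for 37 of the 46 members, whereas it was the highest for 25.8% of all tested genes. The mean of log2(RPM + 0.5) over the members was 3.20 in this library and 2.52 to 2.70 in the other 6. Rrm2 reached 7.34 RPM, Exo1 2.70 RPM and Pole 5.99 RPM there. Its mean over 10 mitosis genes was also the highest, at 2.77 against 1.06 to 1.71. Without it, 27 members were higher in PM-OVA against PM in place of 24 (3400 of all genes, in place of 3379).

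Challenged offspring of the 2 kinds of dam were then compared directly. None of the 45 members, and none of all genes, passed an adjusted p of 0.05 in PM-OVA against Sham-OVA with limma, while 2 members were lower at an unadjusted p under 0.05 (4.44%, against 0.673% of all genes), and DESeq2 and edgeR also called no member, with 4 members each under an unadjusted p of 0.05. Leaving out 1 library moved the number in limma to 13 without Sham-OVA replicate 3, to 8 without PM-OVA replicate 4, and to 1 without Sham-OVA replicate 1 or 4 or PM-OVA replicate 1 or 2. Without Sham-OVA replicate 3 the median of all genes stood at -0.13 and that of the members at -0.47. The counts under these other settings took either direction, and the share of all genes was not counted for them. The 2 were Mcm5 (log2 fold change -0.61 ± 0.25 SE) and Fen1 (-0.62 ± 0.19 SE), both with an adjusted p of 1. Values were below 0 for 42 of 45 members (93.3%, against 47.7% of all genes), and their median was -0.31, compared with 0.01 for all genes. These signs are a description of the same 9 libraries and not 45 independent results, since all members were measured in the same libraries.

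The interaction asked whether the response to OVA differed between Sham and PM offspring. None of the members, and none of all genes, was called (limma, adjusted p under 0.05), and neither edgeR nor DESeq2 called a member. At an unadjusted p under 0.05, 7 members had a smaller response in PM offspring (15.6%, against 1.56% of all genes), and none a larger one, while edgeR and DESeq2 each placed 11 members under that p. Leaving out 1 library moved the number of members under that p to 18 without Sham-OVA replicate 3, to 12 without PM-OVA replicate 4 and to 4 without Sham-OVA replicate 1, and otherwise gave 6 to 9. Without Sham-OVA replicate 3 the median of all genes stood at -0.14 and that of the members at -0.59. The counts under these other settings took either direction, and the share of all genes was not counted for them. The 7 were Mcm2, Mcm3, Mcm4, Mcm5, Fen1, Rrm2 and Tipin. Fen1 had the smallest p (difference in log2 fold change -0.77 ± 0.19 SE, adjusted p = 0.592, limma), followed by Mcm2 (-0.77 ± 0.24 SE, adjusted p = 0.635, limma). The estimate was below 0 for 41 of 45 members, against 50.8% of all genes.

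The libraries with few reads weighed on these comparisons. When the 3 shallowest libraries (replicate 3 of Sham-OVA with replicates 3 and 4 of PM-OVA) were left out, a choice made after the data were seen, the interaction was called for 5 members, all with a smaller response in PM offspring (11.1%, against 0.649% of all genes). They were Fen1 (-0.94 ± 0.18 SE, adjusted p = 0.0142), Mcm4 (-0.87 ± 0.19 SE, adjusted p = 0.0195), Mcm3 (adjusted p = 0.0307), Mcm2 (-0.97 ± 0.24 SE, adjusted p = 0.0321) and Mcm5 (-1.14 ± 0.32 SE, adjusted p = 0.0472), all by limma. At an unadjusted p under 0.05, 23 members were lower (6.24% of all genes). Only 2 PM-OVA libraries remained in this fit, and the median of all genes moved to 0.14. In PM-OVA against Sham-OVA, 20 members were then lower at an unadjusted p under 0.05 (44.4%, against 5.54% of all genes), and still none passed adjustment. With weights for each library 14 members were called lower in the interaction, but so were 3965 of all genes. Leaving out any 1 library called none.

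**Figure D5:**
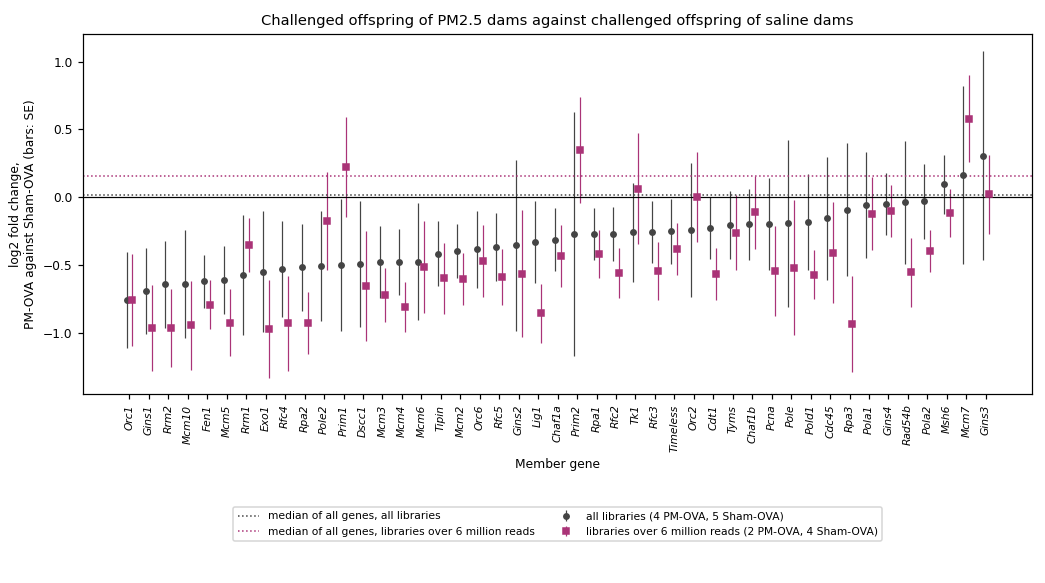
Log2 fold change of each tested member in PM-OVA against Sham-OVA with its standard error, for all libraries (dark circles) and without the 3 shallowest libraries (purple squares), with dotted lines at the medians of all genes. Most members lie below 0 in both versions, the error bars of many reach 0, and Mcm7, Prim2 and Prim1 lie highest in the deeper libraries.

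Some libraries stood out in the OVA groups too. Sham-OVA replicate 1 was the highest of its group for 36 of the 46 members (40.5% of all tested genes), and the mean of log2(RPM + 0.5) over the members was 4.15 in it. Sham-OVA replicate 3, with a mean of 2.93, was the lowest for 31 of the 46 members, a share no higher than the 69.7% of all tested genes for which it was the lowest. The other 3 libraries lay between 3.52 and 3.80. PM-OVA replicate 4 was the highest of its group for 24 of the 46 members, against 14.5% of all tested genes. In PM-OVA the means were 3.38, 3.24, 3.08 and 3.46 in replicates 1 to 4. The group means were 3.61 in Sham-OVA and 3.29 in PM-OVA. The SD of single libraries within Sham-OVA was 0.446, which does not measure the uncertainty of a difference between means. Replicate 3 of Sham-OVA lay below all PM-OVA libraries, and the other Sham-OVA libraries (3.52 to 4.15) lay above all of them (3.08 to 3.46). The difference in this mean was not tested.

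Other genes of replication and repair, a list of 44 that excludes the members, were more mixed. In Sham-OVA against Sham, 22 were higher and 10 lower, where 20.6% of all genes were higher and 47.5% lower, and the median log2 fold change was 0.42. In PM-OVA against PM, 13 were higher and 12 lower, where 20.1% of all genes were higher and 45.2% lower, and the median was 0.04. Among the largest rises in Sham offspring were those of the histone chaperone Asf1b (2.17) and the checkpoint adaptor Clspn (1.86). The 3 largest falls were those of the clamp loader subunit Chtf8 (-3.52), the p53-inducible reductase subunit Rrm2b (-2.99) and the checkpoint protein Topbp1 (-1.39). Rrm2b therefore moved opposite to Rrm2. These 5 genes were called in PM offspring in the same direction, Rrm2b with a log2 fold change of -2.96 ± 0.40 SE.

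Genes that control entry into S phase moved in both directions. Of 25, 10 were higher and 9 lower in Sham-OVA (20.6% and 47.5% of all genes), and 8 were higher and 12 lower in PM-OVA (20.1% and 45.2% of all genes). The cyclin Ccne1 rose by 3.61 ± 0.23 SE on the log2 scale in Sham and 2.87 ± 0.31 SE in PM offspring, from 0.443 to 1.33 RPM in Sham to 12.4 to 22.6 RPM in Sham-OVA. Ccna2, the S phase cyclin, rose by 2.89 and 1.90, and E2f8, an E2F repressor, by 2.28 and 1.38. The 3 largest falls were those of the repressor E2f6 (-2.72 and -2.73) and of the inhibitors of cyclin-dependent kinases Cdkn1c (-1.79 and -1.51) and Cdkn1b (-1.50 and -1.32). Of the 4 inhibitors listed, 3 were lower in Sham-OVA and all 4 in PM-OVA, where 47.5% and 45.2% of all genes were lower. Of 10 mitosis genes, 9 were higher in Sham-OVA and 7 in PM-OVA (20.6% and 20.1% of all genes), led by Cdk1 (3.73 and 2.88). Mki67, the proliferation marker, was not called (-0.26 ± 0.70 SE and -1.61 ± 0.93 SE) and ranged from 0.311 to 38.1 RPM in Sham-OVA and from 0.363 to 74.2 RPM in PM-OVA. Its lowest values lay in shallow libraries, Sham-OVA replicate 3, where it was a single read, and PM-OVA replicate 4.

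Markers of some immune cells were higher with OVA, and those of alveolar macrophages were not. The summed level of 5 plasma cell markers was 340 to 532 RPM in Sham, 355 to 498 RPM in PM, 7032 to 12299 RPM in Sham-OVA and 6652 to 10876 RPM in PM-OVA, with 4 of 5 called higher in each comparison and Sdc1 called lower. All 5 interstitial macrophage markers were higher, with sums of 144 to 282, 227 to 399, 1640 to 2488 and 1437 to 2171 RPM in the same order of groups. T cell markers summed to 72.1 to 152, 73.9 to 124, 110 to 241 and 109 to 175 RPM (3 of 6 called higher in Sham-OVA and 2 of 6 in PM-OVA), and B cell markers to 59.8 to 260, 67.8 to 205, 193 to 570 and 176 to 338 RPM (2 of 5 in each). Of 5 eosinophil markers 4 were higher and Siglecf was lower, with sums of 3.66 to 14.0, 4.93 to 15.8, 19.6 to 48.0 and 20.9 to 29.5 RPM, and Epx was at 0 in every library without OVA. Of 5 alveolar macrophage markers none was higher and 3 were lower in each comparison, against 47.5% and 45.2% of all genes lower. Their sums were 104 to 219, 155 to 258, 70.2 to 144 and 83.9 to 196 RPM. Of 4 fibroblast markers 2 were lower in each comparison, a share near that of all genes (47.5% and 45.2%). Markers of a lung epithelial cell, the alveolar type 2 cell, also had a larger sum after challenge. It was 11957 to 22102, 14901 to 28462, 28586 to 35231 and 21991 to 42581 RPM. The ranges were separate for Sham offspring and overlapped for PM offspring. Each comparison called 2 of these 5 markers higher and 1 lower. The part of these cell types in the rise of the replication genes was not tested.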

How the data were processed

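RNA was measured in portions of lung from 23 offspring by stranded single-end mRNA sequencing. Trimming was by Trimmomatic and alignment to GRCm38 by Bowtie2, which does not split reads over introns, before the authors quantified genes in SeqMonk. Whether counting used strand is not given in the sources used here. The deposited values are named RPKM, but dividing them by a library's smallest value gave whole reads (tolerance 0.01 read) for 100% of genes at any gene length, so the authors' values were taken as RPM and reads were recovered. Labels also name mm10 and bcl2fastq. Groups came from the labels. Reads on genes per library ranged from 2298645 to 17393579, and p-values measure the spread between animals, whose litters the labels do not give.

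Tests ran on the 16795 genes that reached 0.5 RPM in 4 or more libraries, on log2(RPM + 0.5) with limma 3.58.1 (R 4.3.3, variance trend, Benjamini-Hochberg adjustment), each comparison on its own groups and the interaction on all 4. The pseudocount makes folds of low genes too small. Alternatives were other pseudocounts, filters and scalings, array weights, a replicate block, all groups in 1 fit, leaving out each library, and edgeR 4.0.16 and DESeq2 1.42.0 on the recovered reads. The study's threshold is an adjusted p under 0.000001 with an absolute log2 fold change above 1, which the study applied to DESeq2 on raw counts. Members and lists were chosen with earlier results of these data known. Named in full were the members with the largest and smallest change in each role group, Pcna, Mcm2, and those with opposite signs in the 2 OVA comparisons, and of other lists the 3 largest and 3 smallest changes, of which 1 gene is not reported here. Copies were found by matching annotated GENCODE transcripts with BLAST (95% identity, 100 bases or more). In data simulated with the read totals of the libraries, limma called 100 of 100 genes changed by a log2 fold change of 1.5 in Sham-OVA against Sham. It called 95 of 100 in the interaction. All groups were drawn from the Sham mean with a common spread and no shift over all genes, and low genes were left unchanged. These rates therefore do not give the power for low genes, for smaller changes or for the spread of the OVA libraries. No 2 libraries of the same group agreed within sampling noise, and libraries of different groups were not compared in this way.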

Additional observations from a re-analysis of the deposited data

Results flagged for a closer look

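In PM, replicate 5 was farther from the other 6 libraries than Dixon's 95% limit allows for the mean log2 level of the members (3.20) and for 10 of the 24 members described with a value in every library. These were Mcm5 (19.7 RPM), Mcm10 (4.58 RPM), Lig1 (17.1 RPM), Rrm2 (7.34 RPM), Rrm1 (45.8 RPM), Chaf1a (14.8 RPM), Chaf1b (7.86 RPM), Exo1 (2.70 RPM), Mcm2 (33.9 RPM) and Pole (5.99 RPM). Elsewhere, Mcm5 in PM-OVA replicate 4 (46.3 RPM), Pold1 in Sham-OVA replicate 3 (40.7 RPM) and Lig1 in Sham replicate 3 (11.3 RPM) stood apart from their groups. The limit was passed in 14 of 100 groups of libraries tested, 11 of them through PM replicate 5. For a single group of normally distributed values, chance passes it in about 1 in 20. The 100 groups are not independent, since all members were measured in the same libraries. The count can therefore not be set against that rate.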

How the results depend on the processing

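No called direction was reversed under any alternative. In Sham offspring the number of members called higher was 31 and ranged from 28 to 40, and in PM offspring it was 24 and ranged from 22 to 33. Over all genes, those called higher numbered 3453 and ranged from 2908 to 5584 in Sham offspring. In PM offspring they numbered 3379 and ranged from 2288 to 5321. Quantile normalisation, median-of-ratios scaling, edgeR and DESeq2 brought the median of all genes in Sham-OVA against Sham from -0.48 to between -0.17 and -0.05, and called 40, 37, 40 and 40 members higher. Of all genes they called 5484, 4903, 5584 and 5286 higher. Members called lower in Sham-OVA against Sham numbered 2, but 1 with a pseudocount of 0.1, without a filter, with quantile normalisation, median-of-ratios scaling, DESeq2 or the replicate block, and 0 with edgeR. At the study's threshold 6 members were called higher by limma, but 28 with DESeq2, the tool the study used it with. The number was 2 without a filter, 17 with quantile normalisation and 12 with median-of-ratios scaling. It was 19 with edgeR, 22 with array weights and 14 with all groups in 1 fit. In PM-OVA against PM, members with a log2 fold change above 1 numbered 14, but 23 with quantile normalisation, edgeR or DESeq2 and 22 with median-of-ratios scaling. At the study's threshold 0 members were called by limma, but 16 with DESeq2. Array weights called 1 and all groups in 1 fit called 2. The shares of all genes at this threshold were not counted for these settings in either comparison. Members called lower numbered 1, but 6 with array weights and 2 with all groups in 1 fit (8513 and 7539 of all genes, in place of 7589). Of the other replication genes, quantile normalisation called 6 lower in Sham offspring and 21 higher in PM offspring, as did median-of-ratios scaling for the latter (21). The interaction called 14 members with array weights and 5 without the 3 shallowest libraries (a setting chosen after seeing the data), and otherwise 0. The cause of these shifts was not tested.

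Leaving out each library in turn gave in Sham-OVA against Sham 28 to 37 members higher, 1 to 2 lower, 21 to 27 with a log2 fold change above 1, and 2 to 14 at the study's threshold. The 14 came without Sham-OVA replicate 3, and 2 and 3 without Sham-OVA replicates 2 and 4. Over all genes it gave 3196 to 4221 higher and 7622 to 8149 lower. In PM-OVA against PM it gave 22 to 27 members higher, 1 to 5 lower (5 without PM-OVA replicate 1 and 3 without replicate 2), 13 to 17 above 1, and 0 at the study's threshold, and it called 0 in the other comparisons. Over all genes PM-OVA against PM then had 3100 to 3607 higher and 6485 to 8476 lower. The shares of all genes above 1 and at the study's threshold were not counted for these fits.

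For most OVA libraries the replicate numbers of the titles differ from those in the library names. The correlations of deviations of same-numbered libraries ran from -0.311 to 0.617. They were 0.595 and 0.617 for replicates 1 and 3 of Sham-OVA with PM-OVA, so they do not settle whether the numbers pair libraries. With the replicate number as a block, members called higher numbered 28 in Sham and 22 in PM offspring, members lower 1 and 1, those above 1 22 and 17, those at the study's threshold 0 and 0, and the other comparisons called 0. Of all genes, 2908 and 2288 were then higher and 7117 and 5694 lower. Depth limits members under 1 RPM, since 1 read in the shallowest library is worth 0.311 RPM.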
